A study of Mus musculus with 6 samples.

Results

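The genes described here were the ubiquitin-conjugating E2 enzymes of the mouse prefrontal cortex. They were taken by name, as all protein-coding genes whose symbol starts with Ube2 followed by a letter and an optional number. The rule gave 32 genes of the 21006 gene identifiers measured, of which 16078 were protein-coding. Another 3 measured genes carried such a symbol but were annotated as pseudogenes (Ube2d-ps, Ube2n-ps1 and Ube2nl) and were left out. The rule also took Ube2cbp, which is named for binding an E2 enzyme and is not counted among the E2 enzymes, and it was kept because its symbol matched. Ube2c, Ube2u, Ube2d2b, Ube2dnl1 and Ube2dnl2 were not analysed here.

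Ubiquitin is a small protein that cells attach to other proteins in a relay. An E1 enzyme activates it, an E2 enzyme receives it on a cysteine of its active site, and an E3 ligase helps the E2 to pass it to the target. The E2 largely sets which kind of ubiquitin chain is built, and chains of different linkage send a protein to the proteasome, recruit signalling or DNA repair factors, or alter its traffic. Some E2 enzymes carry related modifiers such as SUMO, NEDD8 or ISG15 in place of ubiquitin. In neurons ubiquitin tags are known for their part in the turnover of synaptic proteins.

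The samples were prefrontal cortices of wild-type male C57BL/6 mice aged 18 months by their age label, although the sample titles carry another number of months. PND stands for postoperative neurocognitive disorder, which the treatment is meant to model. Animals of the PND group received isoflurane anesthesia with an exploratory laparotomy, in which the abdomen is opened and its organs are inspected, and lidocaine and povidone iodine on the wound afterwards. The CON group received neither. Both groups went through the open field test, fear conditioning with foot shocks and the Barnes maze, and all animals were deeply anesthetized with isoflurane and perfused with saline before the tissue was taken, so that isoflurane at harvest was common to both. Each group held 3 animals with 1 library each, and the effects of the anesthetic and of the surgery cannot be told apart. The values were FPKM, fragment numbers per length of exon and per size of the library, which correct a gene's level for its length and for sequencing depth. The libraries held an estimated 7220000 to 9390000 fragments. Neuronal markers were abundant in every library (summed level of 5 genes between 625 and 747 FPKM).

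The active site of the family is shown here as coding sequence, because Ube2l3, Ube2l6, Ube2d3 and Ube2n are the genes on which the comparison turns and the stretch shows how close they are to each other. Ube2l3 is the only E2 gene past the study's cut-off as applied here, and Ube2l6 is its nearest relative by name. Ube2d3 has the E2 profile nearest to that of Ube2l3, and Ube2n is the E2 gene with the highest level. Each stretch runs 5′ to 3′ on the coding strand, starts at the codons for histidine, proline and asparagine, and has the codon of the cysteine that follows after 7 further codons in capitals. Positions are those of GRCm38 with the GENCODE M21 annotation, and each stretch lies in a single coding exon.
Ube2l3, chr16:17160033-17160074, minus strand: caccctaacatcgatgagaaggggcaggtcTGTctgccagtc
Ube2l6, chr2:84806439-84806480, plus strand: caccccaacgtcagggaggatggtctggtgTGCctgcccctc
Ube2d3, chr3:135459999-135460040, plus strand: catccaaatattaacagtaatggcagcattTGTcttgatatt
Ube2n, chr10:95541403-95541444, plus strand: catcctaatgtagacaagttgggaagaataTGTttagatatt

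Ube2l3 and Ube2l6 had the same base at 29 of the 42 positions, and Ube2d3 and Ube2n at 28. Ube2l3 had the same base as Ube2n at 21 positions and as Ube2d3 at 20. The order of codons searched (histidine, proline, asparagine, any 7 codons, cysteine) was present in the longest coding sequence of 16 of the 32 genes and in 45 of 15947 other protein-coding genes (0.282%). In Ube2h and Ube2k the 3 codons were present without a cysteine codon at that distance. The other 14 genes did not hold the 3 codons in the frame of their longest coding sequence. Among these were Ube2v1 and Ube2v2, which are known as E2 variants that lack the active-site cysteine.

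All 32 genes had a mean of at least 0.1 FPKM and were tested, and 29 had a mean of at least 1 FPKM. Their median level was 8.22 FPKM. Levels above 20 FPKM were measured for 6 genes, levels from 5 to 20 FPKM for 13, and levels from 1 to 5 FPKM for 10. The highest was Ube2n, which builds chains linked through lysine 63, at 45.5 ± 0.740 FPKM in the PND animals against 46.3 ± 3.14 FPKM in the CON animals (mean ± SD, n = 3 for every value given in this form). Ube2j1, an E2 anchored in the membrane of the endoplasmic reticulum, came next at 45.2 ± 2.33 FPKM in the PND animals against 43.4 ± 3.65 FPKM in the CON animals. The gap between Ube2n and Ube2j1 was smaller than the spread within CON. The 3 genes below 1 FPKM were Ube2s, Ube2l6 and Ube2t. The E2 genes together summed to 363 ± 9.50 FPKM in the PND animals against 372 ± 29.8 FPKM in the CON animals, and these sums overlapped.

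**Figure D1:**
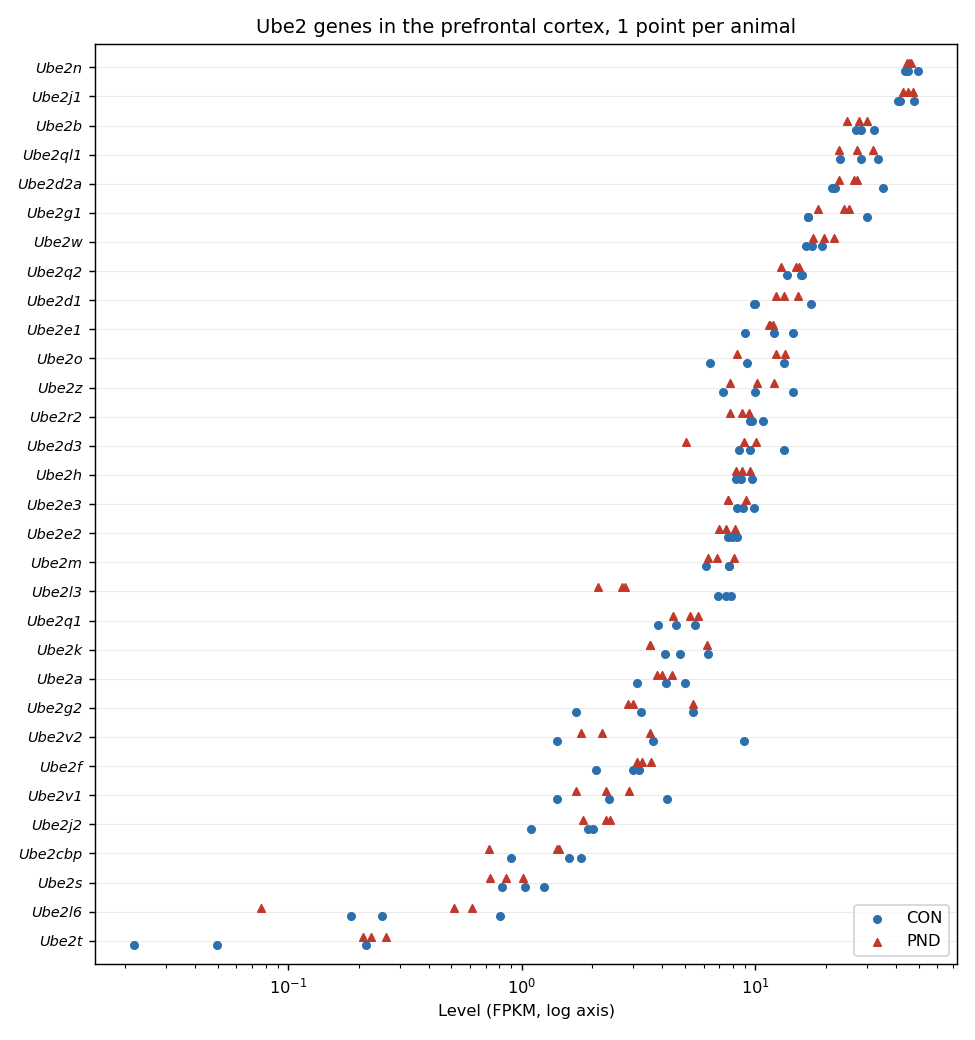
Level of 31 of the 32 genes in each animal, in FPKM on a logarithmic axis, with genes ordered by their mean; blue circles are the 3 CON animals and red triangles the 3 PND animals. For Ube2l3 the PND points lie between 2.12 and 2.76 FPKM and the CON points between 6.95 and 7.85 FPKM, while for every other gene except Ube2r2 the points of the groups overlap.

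The main question was whether another E2 gene followed Ube2l3. Ube2l3 is the E2 that passes ubiquitin to cysteine and so works with the HECT and RBR classes of E3 ligase. It was picked out from earlier results of these same samples, so its own values are a description and no independent evidence. The PND animals had 2.76, 2.12 and 2.70 FPKM and the CON animals 7.46, 7.85 and 6.95 FPKM. Every PND animal lay below every CON animal, and the means were 2.53 ± 0.353 FPKM and 7.42 ± 0.450 FPKM, a level 2.94 times as high in CON. The log2 fold change (PND minus CON, on the log2(FPKM + 0.1) scale) was −1.52 with a standard error of 0.16 and a 95% interval of −1.90 to −1.15. The limma p was 2.32e-05 unadjusted and 0.105 after Benjamini-Hochberg adjustment over 18185 genes. The values corresponded to an estimated 389 fragments over the PND animals and 993 over the CON animals. In bulk tissue a lower level per cell cannot be told apart from fewer cells that express the gene.

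Among the E2 genes of 1 animal, Ube2l3 held rank 25 to 27 of 32 by level in PND and rank 17 to 20 in CON. It made up 0.696 ± 0.0893% of the summed E2 level in PND and 2.00 ± 0.167% in CON. Ube2l3 lies at chr16:17152013-17202649 on the minus strand, and 1670 bases of its exons overlap exons of Ydjc on the opposite strand. Of its stretches of 50 exonic bases, 32.2% were also found in other genes and 27.2% in Ydjc, and the use of strand in counting was not stated. Ydjc itself measured 0.195 ± 0.156 FPKM in the PND animals against 0.255 ± 0.107 FPKM in the CON animals, with overlapping animals and about 29.5 and 33.1 fragments over each group. Its part in the level of Ube2l3 was not tested.

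Of the 32 E2 genes, 1 passed the study's cut-off (absolute log2 fold change above 1 and unadjusted p below 0.05), namely Ube2l3, where 1.33% of all genes tested passed. Only the thresholds are those of the study, applied here to the limma fit of log2(FPKM + 0.1). The study named edgeR and limma and took fold changes from FPKM, so its calls can differ from these. It was lower in PND, as were 0.484% of all genes, and no E2 gene passed in the higher direction, where 0.841% of all genes did. An unadjusted p below 0.05 was likewise reached by 1 of 32, Ube2l3, against 3.13% of all genes. Because Ube2l3 was chosen on these samples, its call does not measure the family against the background. None of the other 31 E2 genes passed the cut-off or reached an unadjusted p below 0.05. In the lower direction the background was 1.4%, and in the higher direction, where no E2 gene reached it, 1.73%. After adjustment no E2 gene had a p below 0.05 in limma, and 0.011% of all genes did. The groups did not overlap for 2 of 32, Ube2l3 and Ube2r2, against 7.66% of all genes. In both of these all PND animals were the lower ones, which held for 3.88% of all genes, and no E2 gene had all PND animals above, as 3.78% of all genes did.

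The other 31 E2 genes had a median log2 fold change of −0.02, beside 0.01 for all genes tested. Of these 31, 12 lay above 0 and 19 below, beside 9529 above and 8656 below for all genes tested. Their values ran from −0.56 for Ube2v2 to 0.89 for Ube2t at the pseudocount of 0.1, and 25 of the 31 were smaller than 0.25 in size. The smallest unadjusted limma p among them was 0.101, for Ube2t. What the data allow is better read from the 95% intervals than from the p-values. A fall of 2-fold, a log2 fold change of −1, lay outside the interval of 26 genes. The interval of the other 5 (Ube2d3, Ube2v1, Ube2v2, Ube2cbp and Ube2l6) reached −1 or below, as did 21.4% of all genes. The value of Ube2l3 itself lay outside the interval of 29 genes and within that of 2, Ube2v2 and Ube2l6. For 23 genes the whole interval lay between −1 and 1, as it did for 61.5% of all genes, and for 14 between −0.5 and 0.5. Shares over all genes were not taken for the limits of 0.25 and 0.5 or for the value of Ube2l3.

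**Figure D2:**
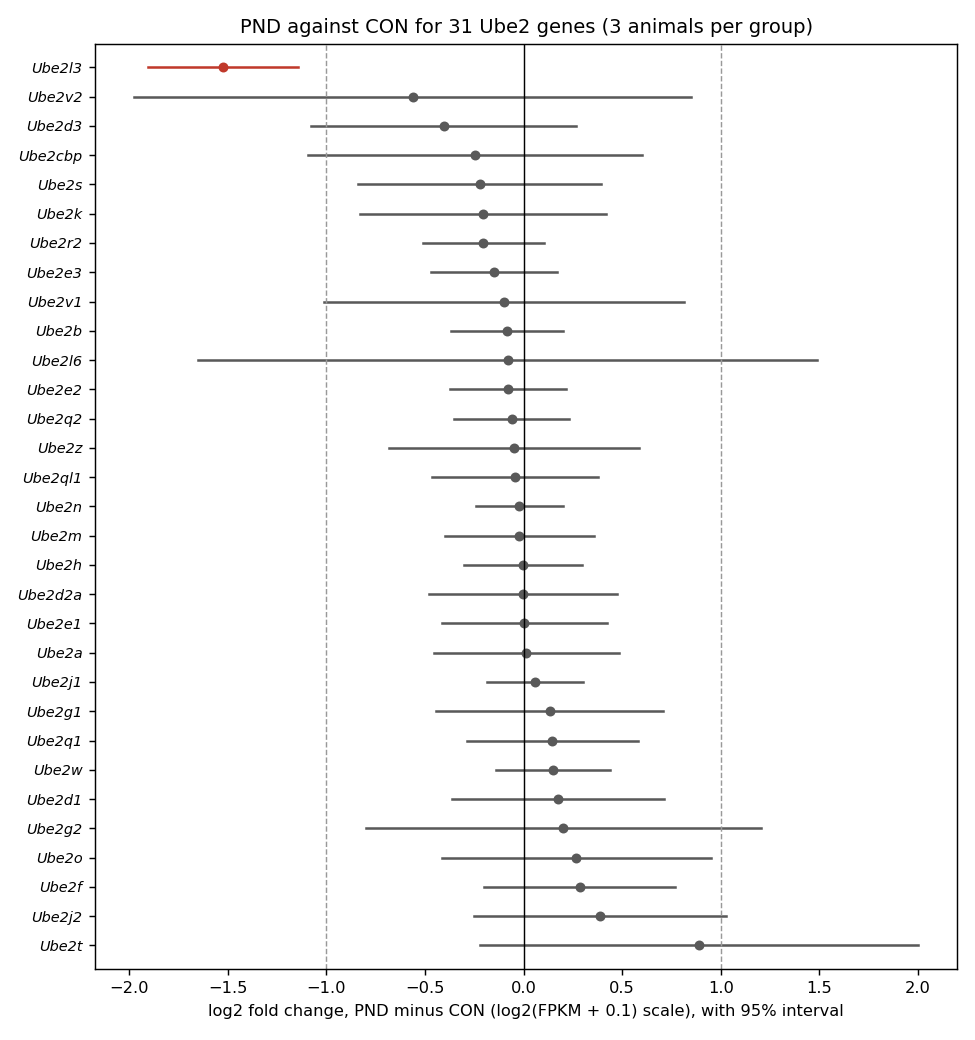
Log2 fold change of 31 of the 32 genes, PND minus CON on the log2(FPKM + 0.1) scale, with its 95% interval from limma; dashed lines mark −1 and 1. Ube2l3 (red) at −1.52 is the only gene whose interval excludes 0, and the intervals of Ube2l6, Ube2v2 and Ube2t are the widest.

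As a description, the log2 ratio of Ube2l3 to each other E2 gene was also taken in every animal. It was lower in all PND animals than in all CON animals for 29 of 31 genes, and overlapped for Ube2v2 and Ube2l6. The difference of the mean log2 ratios ran from −0.96 against Ube2v2 to −2.42 against Ube2t. All ratios share the values of Ube2l3, which was chosen for its low level in these PND animals, so their direction follows largely from that choice and no test is given.

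The likeness of each profile to that of Ube2l3 was measured as the root mean square difference over the 6 animals of log2(FPKM + 0.1), with each gene centred on its CON mean. A value of 0 means the same profile. Among E2 genes, as taken by symbol, the nearest was Ube2d3 at 0.848, followed by Ube2r2 at 0.938, Ube2s at 0.961, Ube2cbp at 0.964 and Ube2e3 at 0.982. For comparison, Ube2n, with a log2 fold change of −0.02, was at 1.07, and Rab12, the nearest gene of the whole table, at 0.197. Each of these nearest E2 values lay closer to the value of Ube2n than to that of Rab12. Of the 18185 genes tested, without Ube2l3 itself, Ube2d3 held rank 877 in nearness to Ube2l3 and Ube2r2 rank 1876.

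Ube2d3 is one of the E2 enzymes that place the first ubiquitin on a target with many RING ligases. It had 10.1, 5.04 and 8.95 FPKM in the PND animals against 9.51, 8.48 and 13.2 FPKM in the CON animals. The groups overlapped, and PND replicate 2 was the lowest of the 6 animals and CON replicate 3 the highest. Its log2 fold change was −0.41 with a 95% interval of −1.08 to 0.27 (limma, unadjusted p 0.198). The value was −0.10 without PND replicate 2, −0.22 without CON replicate 3 and −0.60 without PND replicate 1.

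Ube2r2, which extends chains linked through lysine 48 with cullin-RING ligases, had 8.80, 7.75 and 9.39 FPKM in the PND animals against 10.8, 9.46 and 9.65 FPKM in the CON animals. The groups did not overlap, but the highest PND animal and the lowest CON animal lay close together. The log2 fold change of Ube2r2 was −0.21 with a 95% interval of −0.51 to 0.10 (limma, unadjusted p 0.159), an interval that excludes the value of Ube2l3. Ube2r2 shared the direction of Ube2l3 in all animals at a much smaller size.

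The other 3 of the nearest genes overlapped between the groups. Ube2s, which extends chains for the anaphase-promoting complex, had 0.732, 1.01 and 0.854 FPKM in the PND animals against 0.823, 1.25 and 1.03 FPKM in the CON animals. Ube2cbp, which is not itself an E2 enzyme, had 1.41, 0.723 and 1.44 FPKM in the PND animals against 0.901, 1.78 and 1.59 FPKM in the CON animals. The lowest library held about 31.6 fragments of Ube2s and 10.2 of Ube2cbp.
Ube2e3, an E2 with a long amino-terminal extension, had 9.10, 7.62 and 7.62 FPKM in the PND animals against 9.84, 8.33 and 8.83 FPKM in the CON animals. Its log2 fold change was −0.15 with a 95% interval of −0.47 to 0.17.

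Ube2l6 is the relative of Ube2l3 by sequence and carries the interferon-induced modifier ISG15. It had 0.511, 0.0763 and 0.610 FPKM in the PND animals against 0.805, 0.185 and 0.252 FPKM in the CON animals. Both groups held high and low animals, and the lowest library held about 1.2 fragments. The log2 fold change of Ube2l6 was −0.08 with a 95% interval of −1.65 to 1.49, so a difference like that of Ube2l3 could be neither detected nor set aside. Its root mean square difference from Ube2l3 was 1.26, which was rank 13229 among all other genes tested.

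**Figure D3:**
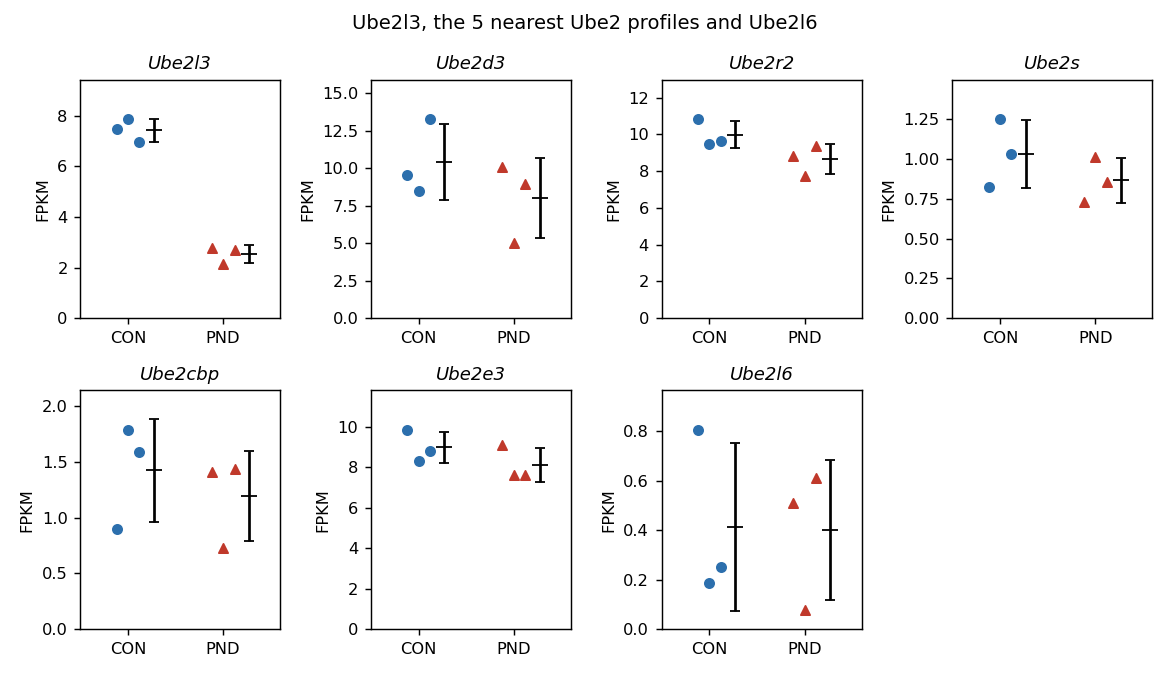
Level in FPKM of Ube2l3, of the 5 genes of the symbol rule with the nearest profiles and of Ube2l6. There is 1 point per animal (blue circles CON, red triangles PND), bars show the mean ± SD of 3 animals, and every axis starts at 0. Ube2l3 falls from about 7.42 to 2.53 FPKM between the group means, Ube2r2 is separated by a narrow gap, and the other 5 genes overlap.

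None of the remaining E2 genes that start ubiquitin chains passed the test. Ube2d1 and Ube2d2a, near relatives of Ube2d3, had log2 fold changes of 0.18 (−0.36 to 0.71) and −0.0045 (−0.48 to 0.47), with the 95% interval in parentheses here and below. In CON, replicate 1 was the high animal for both, at 17.3 FPKM for Ube2d1 beside 9.86 and 10.01 FPKM in the other two, and at 35.3 FPKM for Ube2d2a beside 21.4 and 21.9 FPKM. Without that animal Ube2d1 was at 0.44 (limma, unadjusted p 0.0160) and Ube2d2a at 0.23 (unadjusted p 0.102 in limma). Ube2e1 and Ube2e2 were at 0.00 (−0.41 to 0.42) and −0.08 (−0.37 to 0.21). Ube2w, which attaches ubiquitin to the amino terminus of proteins, was at 0.15 (−0.14 to 0.44).

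Of the genes of lysine 48 chains and of degradation at the endoplasmic reticulum, none passed the cut-off. The membrane-anchored Ube2j1 and Ube2j2 were at 0.06 (−0.18 to 0.30) and 0.39 (−0.25 to 1.03). Ube2j2 had 2.30, 1.83 and 2.38 FPKM in the PND animals against 1.10, 2.02 and 1.92 FPKM in the CON animals, where replicate 1 was low and the groups overlapped. Without that animal the value was 0.13.
Ube2g1 and Ube2g2, the latter also a partner of ligases of the endoplasmic reticulum, were at 0.13 (−0.44 to 0.71) and 0.20 (−0.80 to 1.20). Without CON replicate 1 Ube2g1 was at 0.41 (limma, unadjusted p 0.0384), and Ube2g2 ran from −0.21 to 0.59 with single animals left out. Ube2k, which builds unanchored and attached chains of the lysine 48 type, was at −0.21 (−0.83 to 0.42), with −0.47 without PND replicate 2 and −0.041 without CON replicate 1. Ube2h, a partner of the CTLH ligase, was at −0.01 (−0.30 to 0.29), but 44.2% of its 50-base stretches were shared with other genes, nearly all with Gm26526, and its level is uncertain to that extent.

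Lysine 63 chains are built by Ube2n bound to Ube2v1 or Ube2v2. Ube2n was at −0.02 (−0.24 to 0.20), the narrowest of the E2 intervals. Ube2v2 had 2.21, 3.55 and 1.79 FPKM in the PND animals against 8.91, 1.42 and 3.64 FPKM in the CON animals. CON replicate 1 was the highest and CON replicate 2 the lowest of all 6 animals, and the log2 fold change of −0.56 (−1.97 to 0.85) rested on the former. Without CON replicate 1 the value was 0.077, and without CON replicate 2 it was −1.21 and past the cut-off (limma, unadjusted p 0.0315). Ube2v1 was at −0.10 (−1.01 to 0.81), and 63.5% of its stretches were shared, mostly with the read-through gene model Gm20431 on the same strand. Gm20431 measured 1.05, 0.641 and 3.38 FPKM in the PND animals against 2.20, 2.07 and 0.529 FPKM in the CON animals. Its part in the level of Ube2v1 was not tested.

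The E2 genes of DNA repair and chromatin were Ube2a and Ube2b, which modify histone H2B and PCNA, and Ube2t, which serves the Fanconi anemia pathway. Ube2a and Ube2b were at 0.01 (−0.46 to 0.48) and −0.09 (−0.37 to 0.20). Ube2t had 0.263, 0.226 and 0.210 FPKM in the PND animals against 0.215, 0.0219 and 0.0497 FPKM in the CON animals. The highest CON animal lay within the PND values and the other two were lower, with about 29.4 fragments over PND and 10.4 over CON. The log2 fold change of Ube2t was 0.89 (−0.22 to 2.00), and it did not pass the test (limma, unadjusted p 0.101). The value rests on the pseudocount, with 0.17 at a pseudocount of 1 and 1.68 at 0.01. Without CON replicate 1 the log2 fold change was 1.30 and past the cut-off (unadjusted p 0.0215 in limma).

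None of the E2 genes of ubiquitin-like modifiers reported here passed the test. Ube2m and Ube2f, the E2 enzymes of NEDD8, were at −0.02 (−0.40 to 0.35) and 0.28 (−0.20 to 0.77), the latter 0.10 without CON replicate 3. Ube2z, which takes ubiquitin and FAT10 from the E1 enzyme Uba6, was at −0.05 (−0.68 to 0.59).
The larger E2 enzymes Ube2o, Ube2q1, Ube2q2 and Ube2ql1 ran from −0.06 for Ube2q2 to 0.27 for Ube2o, the latter 0.0077 without CON replicate 1 and 0.53 without CON replicate 2. Ube2o, which acts as E2 and E3 in one protein, varied from 8.36 to 13.5 FPKM in PND and from 6.39 to 13.3 FPKM in CON.

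The spread between animals differed among the E2 genes and between the groups. The coefficient of variation over 3 animals had a median of 12.1% in PND and 21.8% in CON, and it was larger in CON for 21 genes and in PND for 11. It was not taken over all genes, so this cannot be read as a trait of the E2 genes. Differences between single pairs of libraries within a group were compared with GC content (the share of G and C bases in the longest transcript). Across the 32 E2 genes the difference between CON replicate 2 and CON replicate 1 had a Spearman correlation of 0.66 with GC content, beside 0.55 across 18068 genes of the whole table. The difference between PND replicate 3 and PND replicate 2 had 0.53, beside 0.50. These are correlations across genes within pairs of libraries, and genes are not independent replicates.

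The 8 E2 genes of lowest GC content (35.1% to 40.9%) were all lower in CON replicate 2 than in CON replicate 1, with a median log2 difference of −0.64. Of the 8 of highest GC content (51.8% to 63.4%), 7 were higher, with a median of 0.61. Ube2g1 and Ube2d2a belonged to the former, and Ube2g2 and Ube2o to the latter. Between PND replicates 3 and 2 the medians were −0.19 and 0.42. The log2 fold changes between the groups followed GC content less, with a correlation of 0.15 across the E2 genes and 0.19 across all genes. Ube2l3, at 44.9% GC, differed by 0.071 between CON replicates 2 and 1 and by 0.33 between PND replicates 3 and 2, and its log2 fold change with a GC correction was −1.51.

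**Figure D4:**
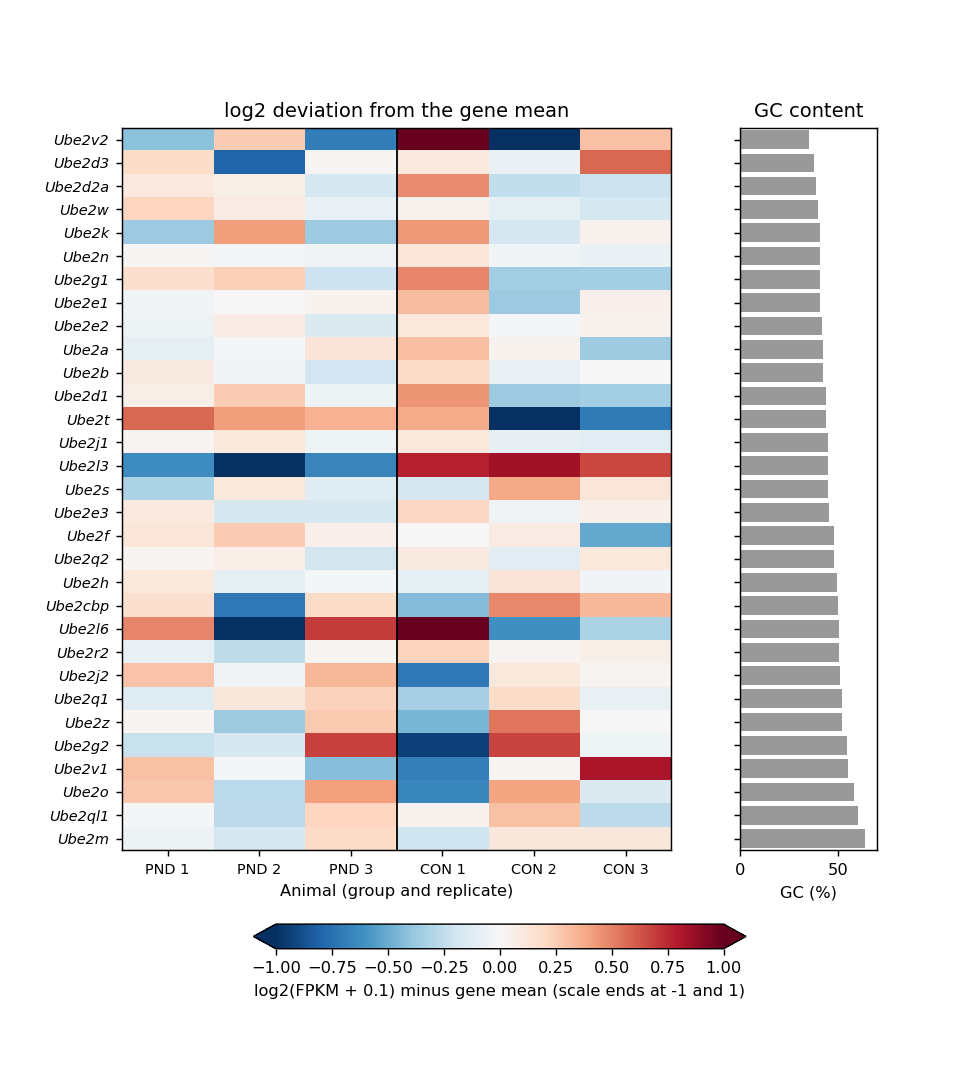
Deviation of each of 31 genes from its own mean over the 6 animals, on the log2(FPKM + 0.1) scale from blue (lower) to red (higher), with genes ordered by the GC content drawn as bars in percent at the right; the colour scale ends at −1 and 1. CON 1 is red and CON 2 blue for most genes at the top (low GC) and the reverse at the bottom (high GC), while Ube2l3 is blue in the 3 PND animals and red in the 3 CON animals.

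The other steps of the relay were examined through lists of their genes. Counts in these lists stand beside 1.33% of all genes past the cut-off and 3.13% with an unadjusted p below 0.05, shares at which lists of this size hold few such genes. Of 9 E1 enzymes tested, none passed the cut-off and the median log2 fold change was −0.09. Of 19 genes of ubiquitin and its relatives, none passed the cut-off and the median was −0.06. An unadjusted p below 0.05 was reached by 1 of these 19, beside 3.13% of all genes. This was Rps27a, which encodes ubiquitin fused to a ribosomal protein. Rps27a had 3.93, 2.79 and 3.51 FPKM in the PND animals against 3.81, 4.97 and 6.34 FPKM in the CON animals, overlapping groups, with a log2 fold change of −0.54 (−1.07 to −0.00055) and a limma p of 0.0498 unadjusted and 0.9999 adjusted. With the replicate block the unadjusted p was 0.0823 and without CON replicate 3 it was 0.173. Sumo2, a SUMO modifier, was the only gene of the list without overlap (7.66% of all genes tested), at 1.45 ± 0.302 FPKM in the PND animals against 1.87 ± 0.101 FPKM in the CON animals. The 8 genes tested that encode other E2 and E2-like proteins, Cdc34 and Birc6 among them, had a median of 0.01 and none passed the cut-off.

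The E3 ligases that Ube2l3 serves showed no difference past the thresholds. Of 14 RBR ligases tested, none passed the cut-off (1.33% of all genes) or an unadjusted p below 0.05 (3.13%), and the median was 0.06. Arih1, which modifies targets of cullin-RING ligases with Ube2l3, had 25.2 ± 1.20 FPKM in the PND animals against 24.4 ± 1.66 FPKM in the CON animals, a log2 fold change of 0.05 (−0.20 to 0.29).
Rnf31 and Rbck1, 2 subunits of the ligase of linear ubiquitin chains, were at 0.33 (−0.25 to 0.92) and 0.13 (−0.88 to 1.15). Arih2 was the only RBR ligase with all PND animals above all CON animals (3.78% of all genes tested), at 2.83 ± 0.216 FPKM in PND beside 2.61 ± 0.0594 in CON. Of 27 HECT ligases tested none passed either, with a median of −0.01. Nedd4l, a ligase of ion channels, was the only HECT ligase without overlap (7.66% of all genes tested), at 40.8 ± 1.64 FPKM in PND beside 34.9 ± 5.99 in CON. Ube3a, the ligase lost in Angelman syndrome, had 9.56, 22.5 and 5.40 FPKM in the PND animals against 17.6, 11.1 and 12.2 FPKM in the CON animals, and the spread within PND was larger than the difference between the group means. The log2 fold change of Ube3a was −0.34 (−1.44 to 0.77).

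Markers of other cell types were measured beside these results. The summed level of 4 astrocyte genes ran from 134 to 158 FPKM in PND and from 133 to 142 FPKM in CON, and 2 of the 4 had an unadjusted limma p below 0.05 in opposite directions, Gfap (0.66) and Aqp4 (−0.36), where 3.13% of all genes had such a p. The sum of 4 microglia genes ran from 13.5 to 16.6 FPKM in PND and from 16.8 to 22.4 FPKM in CON, with 1 of 4 below 0.05, P2ry12 (−0.76). No gene had such a p among those tested of 5 for neurons, 4 for oligodendrocytes (101 to 134 FPKM in PND and 126 to 147 in CON), 3 for endothelium (9.89 to 11.5 and 9.21 to 11.6), 4 for choroid plexus (0.677 to 0.861 and 0.454 to 0.506) and 4 for dividing cells (0.322 to 0.516 and 0.453 to 0.675). Of the choroid plexus genes Folr1 was listed at 0 in 5 animals and Ttr in 3, and Kl made up most of the sum. The sums of the microglia and of the choroid plexus genes did not overlap between the groups, and P2ry12 was the only microglia gene that was itself without overlap. Of the other markers Gfap, Aqp4 and the dividing-cell gene Top2a were without overlap (7.66% of all genes), Top2a at 0.0853 ± 0.00355 FPKM in PND beside 0.188 ± 0.0296 in CON. Erythroid genes summed to 0 to 2.76 FPKM in PND and to at most 0.0769 FPKM in CON. The part of cell composition in the level of Ube2l3 was not tested.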

How the data were processed

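The members and the gene lists were chosen with earlier results of these data known. The authors depleted ribosomal RNA, filtered reads with Seqtk, mapped them with Hisat2, counted fragments per gene with StringTie, scaled them by TMM and deposited FPKM, in 1 column per animal. The submitters' processing notes also list Bowtie 0.12.2, mm8 and mm9 with no role, and the build of these files and the use of strand are not given in the sources used here. Reads of overlapping or near-identical genes could thus be divided in ways not known here.

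Samples were grouped by their treatment label. The FPKM were tested with limma 3.58.1 in R 4.3.3 (lmFit and eBayes with intensity trend) on log2(FPKM + 0.1) over 18185 genes whose mean reached 0.1 FPKM, with no covariate and Benjamini-Hochberg adjustment over all of them. This scale understates changes of low genes. The fit was tested on simulated data. Positions, exon lengths, GC content and coding sequences came from GENCODE M21 on GRCm38, where 20877 identifiers were found, and 20866 identifiers had a symbol in the name table. Ratios of Ube2l3 to other E2 genes are given without a test, since Ube2l3 was chosen on these samples.

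Depth was estimated from the steps of low values at 8870000, 7920000 and 9390000 fragments for PND and 7480000, 8150000 and 7220000 for CON. Between 39.2% and 44.6% of low values lay within 0.05 fragments of a whole number, so whole reads were not recovered, no count test was run, and fragment numbers are estimates. The named genes were all 32 E2 genes by role, with full values for Ube2l3, its 5 nearest E2 profiles, Ube2l6, the highest and lowest genes and those past a threshold, and from the lists the genes past a threshold and partner ligases of Ube2l3. The values of 1 E2 gene and 1 ligase are not reported here, although counts and medians include them. Others were named after their values were seen. Replicate numbers came from the titles. Deviations of same-numbered animals correlated at −0.05, −0.27 and 0.01, so the numbers were not taken to pair animals. Alternatives were other pseudocounts, filters, scalings, a GC correction, a replicate block, no intensity trend, pseudogenes added to their parent gene and each animal left out. Protein sequences were not used here.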

Additional observations from a re-analysis of the deposited data

How the results depend on the processing

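Ube2l3 was lower in PND and past the cut-off under all 17 alternative fits, with a log2 fold change of −1.59 to −1.26, an unadjusted limma p of 1.02e-05 to 0.000469 and an adjusted p of 0.0625 to 0.999992. With the replicate number as a block its value stayed at −1.52 with a p of 0.000469, the number of E2 genes past the cut-off stayed at 1, and 226 genes of the whole table passed. Of all alternatives, only those leaving out an animal changed the count of E2 genes: past the cut-off it was 1 to 2, and by unadjusted p alone 1 to 4. Without CON replicate 1 the additional genes were Ube2t (1.30, p 0.0215), Ube2d1 (0.44, p 0.0160) and Ube2g1 (0.41, p 0.0384), the last 2 by p alone. Without CON replicate 2 it was Ube2v2 (−1.21, p 0.0315). The whole-table count of 241 became 25 when the pseudocount was 1, 59 among genes whose mean reached 1 FPKM, and 240 to 402 with 1 animal left out, highest without CON replicate 2. Genes of the pathway lists past the cut-off numbered 0 to 1 with an animal left out, the 1 being Isg15 (−1.66) without CON replicate 2, a gene named after its value was seen. Isg15 rests on about 1 fragment over PND and 4 over CON and is listed at 0 in 3 animals, so this value is no measure of a fold. The p of Rps27a was above 0.05 under most alternatives.

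Of 524 values of the other 31 E2 genes, 36 changed sign, in 15 genes. In fits of all animals 4 genes did so: Ube2a (−9.35e-05) and Ube2e1 (−0.011) with median centring, Ube2d2a with quantile normalization (0.027), GC correction with or without the block (0.049) and pseudogenes added (0.018), and Ube2n with GC correction with or without the block (0.020) and pseudogenes added (0.043). Leaving out 1 animal gave −0.16 to 0.17 for Ube2a, −0.52 to 0.050 for Ube2cbp, −0.13 to 0.23 for Ube2d2a, −0.18 to 0.16 for Ube2e1, −0.0067 to 0.41 for Ube2g1 and −0.21 to 0.59 for Ube2g2. It gave −0.057 to 0.059 for Ube2h, −0.45 to 0.55 for Ube2l6, −0.13 to 0.063 for Ube2m, −0.058 to 0.033 for Ube2n, −0.13 to 0.015 for Ube2q2, −0.19 to 0.091 for Ube2ql1, −0.47 to 0.29 for Ube2v1, −1.21 to 0.077 for Ube2v2 and −0.29 to 0.21 for Ube2z. Genes that kept their sign also moved with 1 animal left out: −0.15 to −0.011 for Ube2b, 0.038 to 0.44 for Ube2d1, −0.60 to −0.10 for Ube2d3, −0.14 to −0.028 for Ube2e2, −0.23 to −0.084 for Ube2e3, 0.10 to 0.40 for Ube2f, 0.018 to 0.13 for Ube2j1, 0.13 to 0.54 for Ube2j2, −0.47 to −0.041 for Ube2k, 0.0077 to 0.53 for Ube2o, 0.017 to 0.28 for Ube2q1, −0.27 to −0.13 for Ube2r2, −0.36 to −0.089 for Ube2s, 0.61 to 1.30 for Ube2t and 0.080 to 0.23 for Ube2w. Pseudogene addition was chosen after seeing the data, and it summed FPKM and not fragments. The short Ube2n-ps1 (mean of 56.5 FPKM) thus outweighed Ube2n (45.9 FPKM) in the sum. It held only about 704 fragments over PND beside 5031 for Ube2n. The nearest E2 profile stayed Ube2d3 with a pseudocount of 1 (0.695). Median centring cannot change it, since the shift is common to all genes of a library.

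With 3 animals per group, p-values draw only on these animals, and limma moderates the spread of each gene with that of all genes tested. Ube2l6 and Ube2t had the fewest fragments of the E2 genes, with about 1.21 and 0.866 in their lowest library.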

Other observations

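The pseudogenes left out of the E2 genes were listed with values of their own. Ube2n-ps1, an intronless copy of Ube2n, had 61.8, 56.5 and 57.3 FPKM in the PND animals against 59.6, 52.9 and 50.9 FPKM in the CON animals. Ube2n shares 410 stretches of 50 bases with it (9.51% of those of Ube2n), and 410 is also the number that the 459 bases of Ube2n-ps1 can hold. The values of Ube2n-ps1 therefore cannot be told apart from fragments of Ube2n. The log2 fold change of Ube2n-ps1 was 0.11 with a 95% interval of −0.13 to 0.35. Ube2nl, another copy, had 4.09 ± 0.361 FPKM in the PND animals against 4.44 ± 1.14 FPKM in the CON animals. Ube2d-ps had 1.68, 1.30 and 0.923 FPKM in the PND animals against 0.188, 1.43 and 0.672 FPKM in the CON animals, with a log2 fold change of 0.97 and a 95% interval of −0.41 to 2.34, and the groups overlapped for all 3.

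The 3 genes of the whole table with the profiles nearest to that of Ube2l3 were no E2 genes. Rab12, a small GTPase of endosomal traffic, was nearest, with a root mean square difference of 0.197. It had 6.56, 6.64 and 6.77 FPKM in the PND animals against 21.8, 16.3 and 16.6 FPKM in the CON animals. The next were Cfap97d2 (0.220), which was listed at 0 in every PND animal and at 0.171, 0.314 and 0.178 FPKM in CON, and Ccdc170 (0.221), with 0.140, 0.0314 and 0.0529 FPKM in the PND animals against 0.332, 0.488 and 0.380 FPKM in the CON animals. These last 2 rested on few fragments. Genes chosen for their nearness share the direction of Ube2l3 by construction.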
